A study of Mus musculus with 4 samples.

Results

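The Hox genes of the mouse were examined as one family, by cluster and by paralogue group, in the developing inner ear of embryos labelled as conditional double mutants of the transcription factor genes Tbx2 and Tbx3. Members were all non-control probes named Hoxa, Hoxb, Hoxc or Hoxd with a number alone, and for each gene the probe with the highest mean signal was read. Reported here are 42 probes for 38 genes: 10 in cluster A, 10 in cluster B, 9 in cluster C and 9 in cluster D. Of these 38 genes, 6 passed the filter on background and were among the 18409 genes or unnamed targets tested.

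Total RNA came from otocysts, the closed epithelial vesicles that form the inner ear, dissected from NMRI embryos at E10.5. The mutant carried Pax2-cre together with Tbx2(fl/fl) and Tbx3(fl/fl), so that Cre driven from Pax2 sequences deletes the floxed alleles in the otic lineage. Pax2-cre is also known to be active in other tissues, among them the midbrain and the kidney. The control was Tbx2(fl/?) and Tbx3(fl/?), with no Cre named, and its second allele at each locus is not specified by the label. On each of 4 Agilent arrays 1 mutant and 1 control RNA were hybridised together, both female on replicates 1 and 2 and both male on replicates 3 and 4. Dyes were swapped between pairs: the red dye AlexaFluor647 marked the mutant RNA of replicates 1 and 3, and the green dye AlexaFluor555 that of replicates 2 and 4. Nothing in the labels says how many embryos went into an RNA, so p-values measure the spread between these RNA pairs.

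Hox genes encode homeodomain transcription factors that give cells their position along the head-to-tail axis. They lie in 4 clusters, and genes with the same number in different clusters, called paralogues, descend from one ancestral gene. Low-numbered genes lie at one end of a cluster and are expressed furthest forward, up to the hindbrain, while high-numbered genes pattern the trunk, the limbs and the tail. The otocyst forms beside the hindbrain at the level of rhombomeres that express low-numbered Hox genes, and those rhombomeres send signals to it.

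A check of the targeted genes came first. The Tbx3 log2 ratio of mutant over control was -3.38, -3.48, -3.61 and -3.25 on replicates 1 to 4, a mean of -3.43 with SE 0.07 and adjusted p = 4.35e-06 (limma, Benjamini-Hochberg over all genes tested). Tbx2 had ratios of 0.15, 0.23, 0.14 and -0.27, a mean of 0.06 and adjusted p = 0.650. Whether the Tbx2 probe lies in the deleted part was not analysed here, so this value does not check the label. Between 58.4% and 63.2% of spots per channel were well above background. The ratios of all tested genes correlated between arrays at r = 0.662 to 0.857, as a description across genes.

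Detected members were mostly low-numbered genes of clusters A and B. Of the 38 genes, 5 were well above background in all 8 channels (4 arrays, each with a mutant and a control channel): Hoxa2, Hoxa3, Hoxb2, Hoxb3 and Hoxa9. All but Hoxa9 belong to paralogue groups 2 and 3. Hoxb4 was well above background in 5 of 8 channels, 4 of 4 mutant and 1 of 4 control. A further 29 genes were not well above background in any channel. The share of Hox genes that could be tested was 15.8%, against 58.1% of the 31693 genes or targets on the array.

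Detection was rarer at high paralogue numbers, and clusters C and D were nearly without it. In paralogue groups 1 to 3, 4 of 7 genes were tested, against 1 of 15 in groups 4 to 8 and 1 of 16 in groups 9 to 13. No gene of cluster C and none of cluster D passed the filter. Hoxd8 was well above background in both channels of replicate 1, Hoxd4 in the mutant channel of replicate 1 and Hoxc13 in the control channel of replicate 1. The single control channel in which Hoxb4 was well above background was that of replicate 1 too, so these scattered detections all came from 1 array. Silence cannot be read from a dim probe, which gives only a bound. Hoxb1, for example, a gene of the hindbrain beside the otocyst, has a probe printed in 10 spots and was in no channel well above background.

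**Figure D1:**
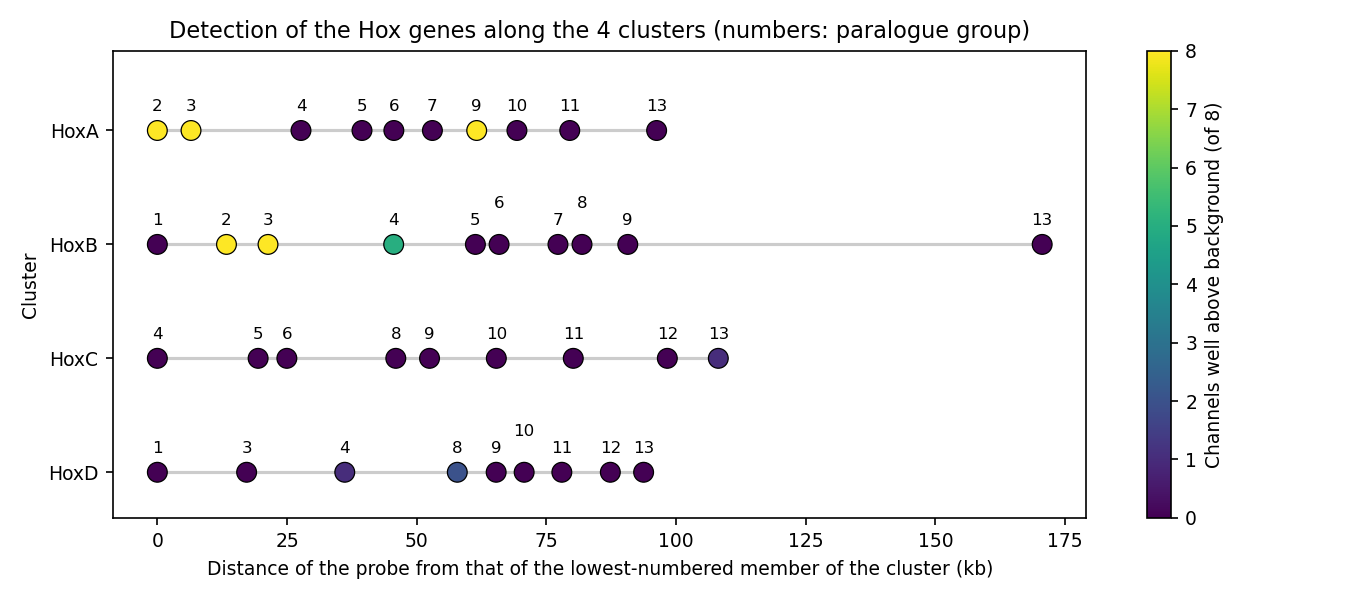
Number of channels (of 8) in which each Hox gene was well above background, coloured from 0 to 8. The horizontal axis is the distance in kb of its probe from the probe of the lowest-numbered member of the cluster, rows are clusters and numbers give the paralogue group. The genes detected in all 8 channels lie within 21.3 kb of that member, except Hoxa9 at 61.6 kb, and Hoxb4 lies at 45.6 kb.

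The probes bear on which transcripts these values describe, and those of the detected posterior gene and of the called genes are shown, 5′ to 3′. Hoxa9 stood outside the anterior groups, and its second probe did not detect it. The bright Hoxa9 probe (mm9, chr6:52174165-52174224, minus strand) and the dim one (mm9, chr6:52175595-52175654, minus strand) lie 1430 bases apart, and their first 30 bases are given because their readings differ:
Hoxa9, 8 of 8 channels: taaaaagagagcaagctagaaagaaaaaga
Hoxa9, 0 of 8 channels: tttgtccctgactgactatgcttgtggttc
Which transcript the bright probe reads was not tested, so the Hoxa9 values below are those of that probe. Hoxb3 also had a second probe, 1888 bases away, which was in 0 of 8 channels well above background. Its log2 ratios of mutant over control were 0.38, 0.07, -0.15 and 0.34, a mean of 0.16. They are readings of a dim probe and were not tested. For Hoxa13 and Hoxd11 both probes were dim in all channels.

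The 2 Hox genes that differed between genotypes were Hoxb2, which was lower in the mutant, and Hoxb4, which was higher, both in cluster B. Over all genes tested, 13.5% were called higher and 10.1% lower at an adjusted p under 0.05, so 1 of 6 in each direction is near the background. Hoxb4 counts among the 6 only through its mutant channels. With signal asked for in both genotypes on every array, 5 Hox genes were tested and 0 were called higher. The first 30 bases of the probes of Hoxb2 (mm9, chr11:96215122-96215181, plus strand) and Hoxb4 (mm9, chr11:96182885-96182944, plus strand) are:
Hoxb2: tggtaaaactccttccaacgaaatctcagg
Hoxb4: tggtgtgaaaatttgtgtcctgtacagagt
The median log2 ratio of the 6 tested members was 0.06, against 0.00 over all genes tested, and 2 of the 6 were negative. It was -0.03 without replicate 1, 0.14 without replicate 3 and, over all 38 members with no filter, -0.0097.

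In group 2 both paralogues were detected. Hoxa2 sets the identity of the second branchial arch and of rhombomeres at the front of the Hox domain. The 4 ratios of Hoxa2 were 0.23, 0.13, 0.05 and 0.26, all above 0. Their mean of 0.17 (SE 0.06, 95% interval 0.03 to 0.30) did not pass the threshold, with adjusted p = 0.0792.

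Hoxb2 acts in the same rhombomeres, with a part in facial motor neuron development. Control levels of Hoxb2 on replicates 1 to 4 were 10.08, 9.81, 9.98 and 9.52 on the normalized log2 scale. Mutant levels on the same arrays were 9.59, 9.66, 9.28 and 9.22. The mutant was below the control on each array, although the groups overlap when the arrays are ignored, because the lowest control level lies below the 2 highest mutant levels.

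The Hoxb2 log2 ratios were therefore all negative, at -0.49, -0.15, -0.70 and -0.30. The fitted difference was -0.41 (SE 0.06, SD 0.24, n = 4 arrays, 95% interval -0.55 to -0.27, adjusted p = 0.00329 by limma), a level 1.33-fold lower in the mutant. The spread followed the dye: the mean was -0.59 where the mutant was red and -0.22 where it was green, and the fit removes this dye term. Of all genes tested, 9.67% had a difference of at least this size in either direction. The call was lost when the channels were analysed without the array as a block, with adjusted p = 0.0508. Hoxa2 and Hoxb2 had opposite signs, and the difference between them was not tested. In whole dissected tissue, fewer cells of a type and less RNA per cell cannot be told apart, here and for each gene that follows.

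**Figure D2:**
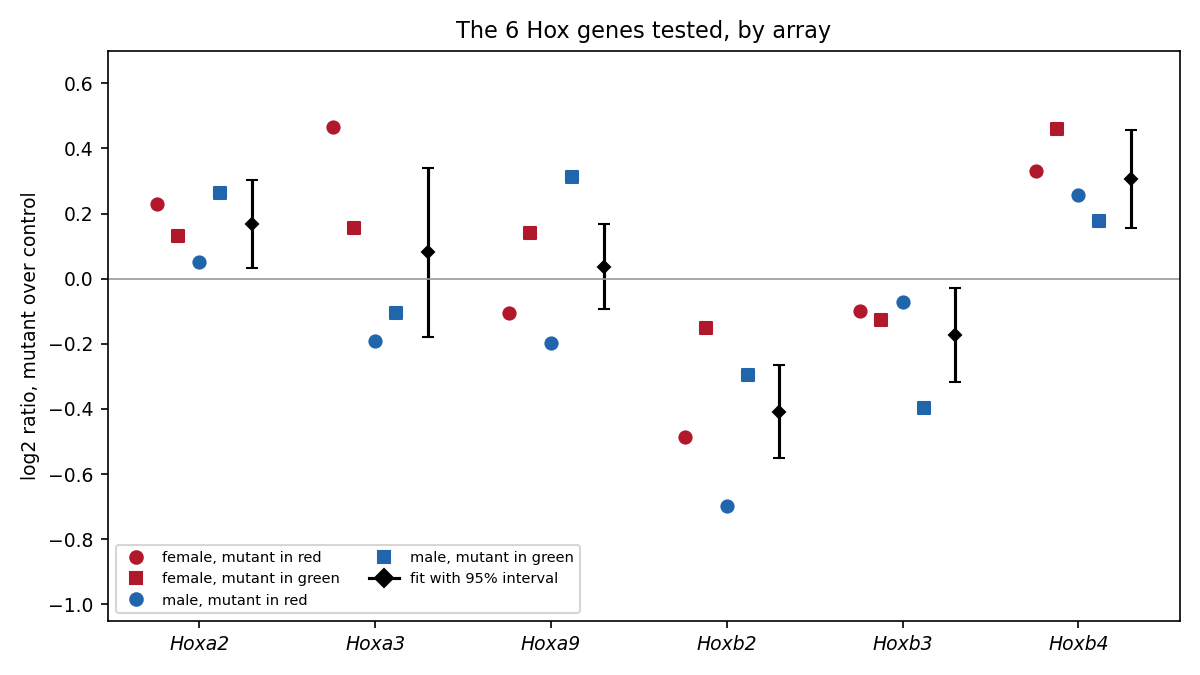
Log2 ratio of mutant over control on each of the 4 arrays for the 6 tested Hox genes, with the fitted value and its 95% interval in black. Red points are female and blue points male pairs, and circles have the mutant RNA in red and squares in green. All 4 points lie below 0 for Hoxb2 and Hoxb3 and above 0 for Hoxa2 and Hoxb4.

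Group 3 genes act in the posterior hindbrain and in the pharyngeal arches behind it. Hoxa3, which is needed for thymus and parathyroid formation, had ratios of 0.47, 0.16, -0.19 and -0.10. The female pairs were positive and the male pairs negative, with means of 0.31 and -0.15. The interaction of genotype with sex did not pass the threshold for Hoxa3 (female minus male 0.46, adjusted p = 0.163 by limma). Its fit left 1 residual degree of freedom, so a missing call says little. The genotype effect did not pass either (mean 0.08, SE 0.11, 95% interval -0.18 to 0.34, adjusted p = 0.650 by limma). Without replicate 1 the fitted genotype difference became -0.08.

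The bright probe of Hoxb3 had ratios of -0.10, -0.13, -0.07 and -0.40. All 4 were negative, and replicate 4 was the lowest. The mean of its dim second probe had the opposite sign, at 0.16. The mean of -0.17 (SE 0.06, 95% interval -0.32 to -0.03) had an adjusted p of 0.0892. Without replicate 4 the fitted difference was -0.11 (adjusted p = 0.312 by limma). The Hoxb3 difference passed the threshold in 3 of 19 alternatives. With the ratios of the scanner software it was -0.34 (adjusted p = 0.0338), with the deposited value table, which holds nearly the same ratios, -0.34 (adjusted p = 0.0332), and without replicate 2 -0.24 (adjusted p = 0.0283). Hoxd3, the third gene of the group, was not well above background in any channel.

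Hoxb4 was the only one of the 4 genes of group 4 to be tested. It belongs to the set of Hox genes of the most posterior hindbrain, behind the level of the otocyst, and retinoic acid is known to set its border. Mutant levels were 7.30, 7.20, 7.05 and 7.14 on the normalized log2 scale. Control levels were 6.97, 6.74, 6.79 and 6.96, and every mutant level lay above every control level. All are near the background: the control was well above it on 1 of 4 arrays, and Hoxb4 entered the test through its mutant channels.

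The Hoxb4 log2 ratios of 0.33, 0.46, 0.26 and 0.18 were all positive. The fitted difference was 0.31 (SE 0.06, SD 0.12, 95% interval 0.16 to 0.46, adjusted p = 0.0136 by limma). With no filter the same ratio had an adjusted p of 0.0108, and with a filter asking for signal in both genotypes on every array it was not tested. No fold is given, since the control was mostly not well above background. Of all genes tested, 14.5% had a difference at least as large. The size depended on the processing: it was 0.96 (adjusted p = 0.000606) with the ratios of the scanner software and 0.96 (adjusted p = 0.000562) with the deposited value table. The call was lost without replicate 1 (0.29, adjusted p = 0.0805) and without replicate 3 (0.33, adjusted p = 0.0603).

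**Figure D3:**
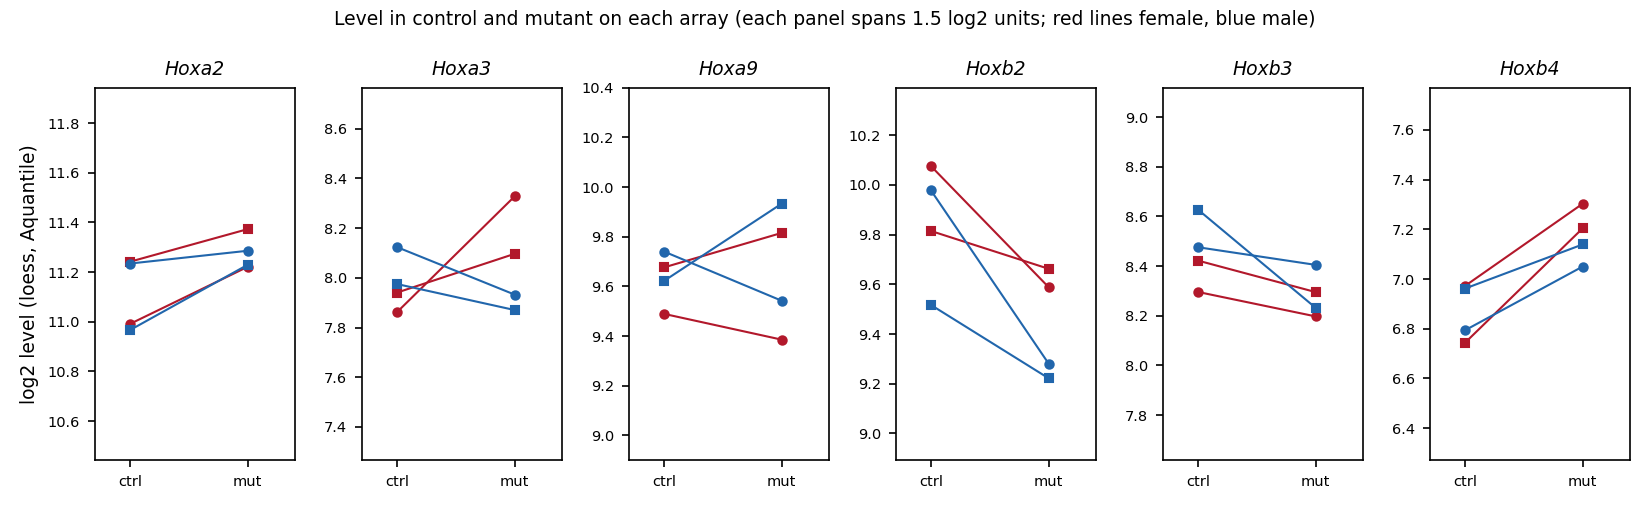
Normalized log2 level of the 6 tested Hox genes in the control (ctrl) and the mutant (mut), with a line for each array. Red lines are female, blue lines male, circles have the mutant in red and squares in green, and each panel spans 1.5 log2 units but has its own position. The lines fall on all 4 arrays for Hoxb2 and rise on all 4 for Hoxb4, whose levels run from 6.74 to 7.30.

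Because Hoxb4 was the higher gene and Tbx2 and Tbx3 are known as T-box repressors, the 250 bases before its RefSeq start (GRCm38.p6, chr11:96318017-96318266, plus strand) were searched on both strands:
Hoxb4: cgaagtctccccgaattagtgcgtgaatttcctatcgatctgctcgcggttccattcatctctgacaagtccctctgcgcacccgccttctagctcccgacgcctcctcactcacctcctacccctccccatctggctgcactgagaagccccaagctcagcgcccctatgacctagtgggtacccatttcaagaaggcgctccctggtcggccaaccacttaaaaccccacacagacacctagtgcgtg
The stretch held 0 matches of the T-box site AGGTGTGA, 0 of the shorter core GGTGTNA, which overlaps it, and 0 of the Hox-Pbx sequence TGATNNAT, so no letters are in capitals. Of 32851 promoters of the same length, 1.12%, 8.61% and 7.68% held the respective motifs. Among 24 Hox promoters of 22 genes in the table, 1, 3 and 4 held them. Hoxb2, the other called gene, was not among those 22 genes, so its promoter was not searched. No match for Hoxb4 says only that these letters are not in this window.

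Of the posterior genes, Hoxa9, which acts in the trunk and in blood progenitors, was the only one tested. It was named here after its values were seen, because it alone of groups 9 to 13 passed the filter. The ratios were -0.10, 0.14, -0.20 and 0.31. Their sign went with the dye: the mean was -0.15 with the mutant in red and 0.22 with the mutant in green. The fitted genotype difference was 0.04 (SE 0.05, 95% interval -0.09 to 0.17, adjusted p = 0.686 by limma).

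By cluster, none of the 3 tested genes of cluster A was called, and their median log2 ratio was 0.08. That median was 0.01 without replicate 1, 0.21 without replicate 3 and 0.14 without replicate 4. In cluster B, 1 of 3 was called higher and 1 lower, against 13.5% and 10.1% of all genes tested. With 3 genes tested in each, these calls do not set clusters A and B apart. The median of cluster B was -0.17, and -0.11 without replicate 4. By paralogue group, the 4 tested genes of groups 1 to 3 had a median of -0.05, with 1 called lower (array-wide, 10.1%). This median has no stable sign: it was -0.12 without replicate 1, -0.11 without replicate 2, and 0.02 without replicate 3 or 4. The interaction of genotype with sex was called for none of the 6 genes by limma, with 1 at an unadjusted p under 0.05. Over all genes tested, that interaction was called for 0.0109%, in a fit that left 1 residual degree of freedom.

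None of the 32 members below the filter was called. Fitted without the filter, their log2 ratios ran from -0.12 to 0.13 with a median of -0.01, and 18 were negative. By limma 0 were called, with 1 at an unadjusted p under 0.05 and a smallest adjusted p of 0.198. Over all 31643 genes or targets in that fit, 2537 were called higher and 1840 lower. A ratio of 2 dim readings is pulled to 0 by the offset added to both channels, so this range is no bound on their difference. With the scanner's less strict flag for positive and significant spots, a setting chosen after the data were seen, 10 Hox genes were tested, adding Hoxa4, Hoxa6, Hoxc13 and Hoxd8. Those 4 had log2 ratios from -0.04 to 0.01 and a smallest adjusted p of 0.670.

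**Figure D4:**
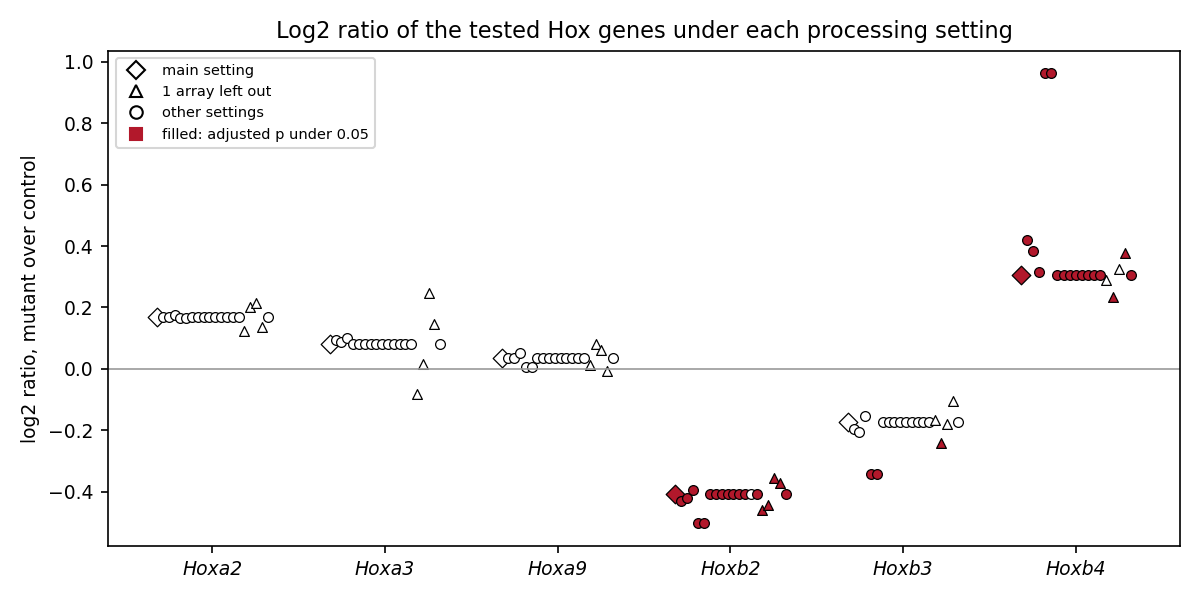
Log2 ratio of mutant over control of the 6 tested Hox genes under each processing setting. Diamonds are the main setting, triangles leave out 1 array, circles are the other settings, and filled symbols have an adjusted p under 0.05. Hoxb2 keeps values between -0.50 and -0.36, while Hoxb4 runs from 0.24 to 0.96.

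Hox proteins bind DNA together with cofactors of the TALE class, the Pbx, Meis and Pknox proteins. All 8 genes reported from this list were tested, with 2 called higher, 1 lower and a median log2 ratio of -0.05. Meis1, a cofactor of Hox and Pbx proteins, was the lower one, with ratios of -0.51, -0.63, -0.39 and -0.46. Its mean was -0.50 (SE 0.06, adjusted p = 0.00105 by limma). Pbx3 rose by 0.25 (adjusted p = 0.0139) and Meis2 by 0.25 (adjusted p = 0.0169). The other 5 genes were not called, and array-wide 13.5% of genes were higher and 10.1% lower.

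Among genes that act upstream of Hox transcription, 3 genes of retinoic acid metabolism had the smallest adjusted p. Of 16 genes listed, 13 were tested, 3 were higher and 4 lower (array-wide, 13.5% and 10.1%), and the median was -0.14. Aldh1a2, which makes retinoic acid, had ratios of -3.06, -3.46, -3.62 and -2.45 and a mean of -3.15 (SE 0.17, adjusted p = 6.24e-05 by limma). Of the 3 genes for retinoic acid breakdown, Cyp26c1 fell by 1.15 on the log2 scale (adjusted p = 9.77e-05) and Cyp26b1 rose by 1.04 (adjusted p = 0.000170). Cyp26a1, the other one, had a log2 ratio of -0.11 and was not called (adjusted p = 0.292). Egr2, Cdx2 and Cdx4, which control Hox genes in the hindbrain and the tail, did not pass the filter.

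Polycomb and trithorax proteins keep Hox clusters closed or open. Of 22 such genes 20 were tested, with 2 higher, none lower and a median of 0.08, so the shares called were below those over all genes tested (13.5% higher and 10.1% lower). Jarid2, a partner of the repressive complex PRC2, rose by 0.34 (SE 0.05, adjusted p = 0.00343 by limma), and Rnf2, the ubiquitin ligase of PRC1, by 0.31 (SE 0.08, adjusted p = 0.0257).

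Among genes beside the clusters, 1 of 9 tested was called, and it was lower, as were 10.1% of all genes tested. Evx1, a homeobox gene next to Hoxa13 at the posterior end of cluster A, had ratios of -1.08, -0.78, -0.88 and -0.97. Its mean was -0.93 (SE 0.06, adjusted p = 0.000131 by limma), while Hoxa13 and Hoxa11 were not well above background in any channel. The list's median was -0.00. Of 31 other RefSeq transcripts inside the clusters, 7 were on the array and 1 was tested, the pseudogene Gm11539, at -0.01 (adjusted p = 0.925). The ParaHox genes, a sister set of the Hox clusters, had 1 of 6 tested: Cdx1, which fell by 0.74 (adjusted p = 0.000355).

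**Figure D5:**
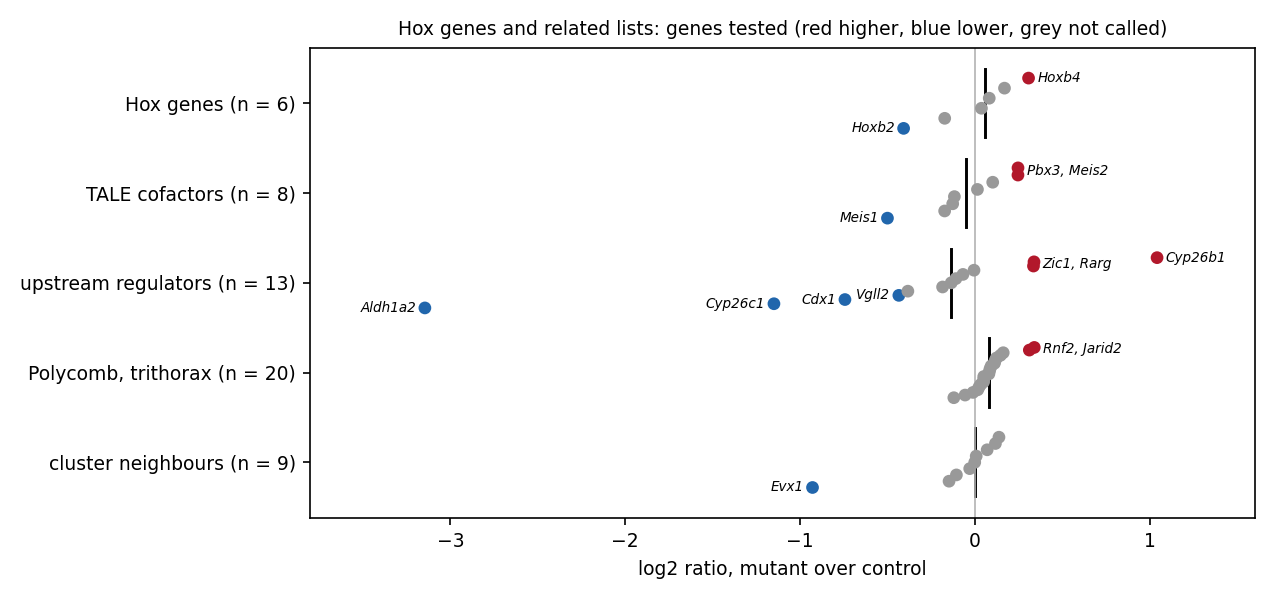
Log2 ratio of mutant over control for the tested Hox genes and 4 related lists, 1 point per gene, with the list's median as a black bar. Red points were called higher, blue lower and grey neither, and the called genes are named. Aldh1a2 at -3.15 and Evx1 at -0.93 lie below the lowest Hox value of -0.41.

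The dissected tissue carried otocyst markers in both genotypes, and markers of other cell types moved with the genotype. All 11 otocyst epithelium markers were tested, with 6 called lower and 2 higher (array-wide, 10.1% and 13.5%) and a median of -0.17. Their summed level, on the linear scale of normalized intensity, was 88154 to 104581 in the mutant and 176831 to 197127 in the control. Most of that gap came from Oc90: without it the sums were 63672 to 67833 and 67912 to 76340. Oc90, an otoconial matrix gene, fell by 1.83 (adjusted p = 2.80e-05), Dlx5 by 1.19 and Gata3 by 1.10.

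For tissues near the otocyst 3 lists of markers were read. Whether the listed genes are confined to those tissues was not tested, and not all of them mark cells that express Hox genes. Of 11 hindbrain markers 6 were tested, with 2 called higher and 1 lower (array-wide, 13.5% and 10.1%). Their summed levels were 4867 to 5431 in the mutant and 4858 to 5749 in the control. Without Epha4, the brightest, the sums were 2244 to 2492 and 1851 to 1910. The hindbrain genes Egr2, Pax6, Olig3, En1 and Wnt8a did not pass the filter. En2, a midbrain and hindbrain gene, was at least 4.20-fold higher in the mutant and well above background on 0 of 4 control arrays. Pax3, a dorsal neural tube gene, rose by 1.05, and Epha4, expressed in rhombomeres, fell by 0.27.

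Of 5 neural crest and glial markers 3 were tested, 1 called higher and 2 lower (array-wide, 13.5% and 10.1%). Their summed levels were 19418 to 20832 in the mutant and 19953 to 25742 in the control. Without Sox10, the brightest, they were 7587 to 8095 and 5911 to 7028. Foxd3 and Tfap2b did not pass the filter. Erbb3 fell by 0.50, Sox10 by 0.35, and Ets1 rose by 0.55. Which cells the RNA of these genes came from was not tested. Of 10 markers of periotic and branchial mesenchyme 9 were tested and 6 were called higher (array-wide, 13.5%). These 6 included Osr1 (1.24), Foxc2 (1.18) and Foxc1 (0.93), and Tcf21 did not pass. The summed level of the 9 was 44876 to 51191 in the mutant and 41416 to 44009 in the control.

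Markers of 3 other cell types were higher in the mutant. Array-wide, 13.5% of genes tested were called higher. Of 10 neuroblast and neuron markers 8 were called higher, with summed levels of 22305 to 27228 against 14776 to 16131 in the control. The smallest adjusted p values of this list were those of Nefm (1.65), Pou4f1 (1.53) and Ina (1.27). Of 9 erythroid markers 8 were called higher, among them Hbb-bh1 (1.45), Hba-x (1.30) and Hbb-y (1.29). Summed levels of that list were 834154 to 908408 against 291274 to 449695. All 8 endothelial markers were higher, among them Sox17 (0.79), Emcn (0.70) and Pecam1 (0.66), with summed levels of 17749 to 18606 against 11292 to 12208. The part of these shifts in the Hoxb2 and Hoxb4 differences was not tested.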

How the data were processed

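The members and lists were chosen with earlier results of these data known. A few items are not reported here and are left out of all counts of members and lists, though the fit holds them. The deposited intensities of each spot and its surroundings come from Agilent Feature Extraction 10.7.3.1, as the submitters' processing notes state. The deposited files also hold log10 ratios of red over green, computed by that software, and its spot flags. The authors' deposited series table holds a score, a signed fold ratio of mutant over control.

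Mean signals were corrected with normexp (offset 50) and normalized by loess within arrays, control spots at weight 0, in limma 3.58.1 (R 4.3.3). Non-uniform spots, 21 to 32 an array, were dropped, and 0 were saturated. The filter asked for signal well above background in 1 genotype on 3 or more of the 4 arrays (23177 of 39429 probes passed), and the brightest kept probe stood for a gene. Names came from a RefSeq table (GRCm38.p6) by accession for 26412 probes, symbol for 3854 and synonym for 735, while 8428 stayed as named in the files. Probe coordinates are those of the files (mm9), and probes were not placed in exons or untranslated regions here.

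The model (lmFit, then eBayes, with 2 residual and 4.59 prior degrees of freedom) held a genotype term signed by the dye of the mutant and an intercept for the dye, and calls are Benjamini-Hochberg adjusted p-values under 0.05. Each array pairs 1 mutant with 1 control RNA by hybridisation. Levels used Aquantile, and SDs include the dye effect. A gene dim on every control array has a fold given as a bound, the mutant mean over the higher of its own control signal and the lowest signal well above background. The number of arrays limits the precision. All arrays shared 1 slide and scan, so no batch could be compared.

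By rule, genes named with their values were every tested member that was called or in groups 1 to 4, and Tbx2 and Tbx3. The rule also took in the 3 called genes with the smallest adjusted p per list. Named outside it were Cyp26a1, Gm11539 and members and listed genes that did not pass the filter. Hoxa9 was added after its values were seen, and the plot of related lists names every called gene. On simulated data, 99 of 100 probes changed 1.5-fold and 100 of 100 changed 2-fold were recovered among 23177 probes, with 10 unchanged ones called. Noise between arrays was set equal for every probe, with no dye effect of its own, and no smaller change was simulated. The simulation therefore does not measure how well differences of the size seen for the Hox genes are recovered. The alternatives were other background corrections, normalizations, filters, moderation, weights and left-out arrays.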

Additional observations from a re-analysis of the deposited data

How the results depend on the processing

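Hoxb2 stayed lower under all 19 alternatives and kept its call in 18 of them (-0.50 to -0.36, adjusted p 0.00136 to 0.0508 by limma). Without the array as a pairing block, in the separate-channel fit, 0 Hox genes were called lower. Hoxb4 stayed higher in the 18 alternatives that tested it and kept its call in 16. With probes required to be well above background on all arrays in both channels, it was not tested, and 0 Hox genes were called higher. With the scanner software's ratios, and with the deposited value table, 2 were called lower, Hoxb2 and Hoxb3. Those settings called 1992 and 2002 of all 18409 genes lower. Leaving out 1 array gave 1 to 2 Hox genes called lower (2 without replicate 2, with 1783 of all genes lower). It gave 0 to 1 Hox genes called higher (0 without replicate 1 and 0 without replicate 3). The cluster B median of -0.17 was -0.34 with scanner ratios, -0.34 with the value table, -0.027 with no filter and -0.29 with the strict filter. Control channels counted 9 detected Hox genes, not 5, with the positive and significant flag, chosen after seeing the data. Hoxa3 was -0.083 without replicate 1 (range to 0.25) and Hoxa9 -0.0060 without replicate 4 (range to 0.080). For these changes the cause was not tested, beyond fewer genes or arrays. The separate-channel fit called 2053 of all genes higher and 1495 lower, against 2480 and 1865, leaving out replicate 3 gave 1557 and 1024, and leaving out replicate 1 gave 1667 and 1142. Signal over background limits the 32 dim members and the size of the Hoxb4 difference.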
